A study of Mus musculus with 6 samples.

Results

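The lysosomal membrane genes described here encode structural glycoproteins, transporters, a phosphatase and the calcium channel of the lysosome's limiting membrane. They were taken by symbol from the annotation of the array, using every probe set with 1 symbol, and comprised 9 genes: Lamp1, Lamp2, Cd63, Cd68, Scarb2, Npc1, Mcoln1, Ctns and Pip4p2. A probe set is a group of short probes whose signals are combined into 1 reading. Of the 9 genes, 8 had such a probe set, with 13 probe sets in all, among 12393 genes and 20380 probe sets measured. Cd63 had none and was not analysed here. Expression was measured by array in the liver of C57 mice, all wild type and 1 month old, with 1 array per mouse. The TFEB-injected group was 3 mice injected with an adenoviral vector for overexpression of TFEB, and the comparison group was 3 mice of the same strain, genotype and age that were not injected. The labels name no mouse given an empty vector, so the effects of injection, of the vector and of TFEB cannot be told apart, and they give no promoter, dose or time after injection. They call the arrays biological replicates. Because whole liver was measured, fewer cells of a type and less RNA per cell cannot be told apart for any transcript.

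The lysosomal membrane separates acid hydrolases from the cytosol and carries a dense coat of glycosylated proteins, chiefly LAMP1, LAMP2 and LIMP-2, the product of Scarb2. Solutes released by digestion leave through carriers such as cystinosin, the cystine exporter encoded by Ctns, and NPC1, which passes cholesterol out of the lumen. The cation channel mucolipin 1, also called TRPML1 and encoded by Mcoln1, releases lysosomal calcium and is gated by phosphoinositides of the membrane. TFEB is a basic helix-loop-helix transcription factor that binds an E-box sequence, often called the CLEAR element, in promoters of many lysosomal genes. In the liver, hepatocytes and Kupffer cells are both rich in lysosomes.

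Promoter sequences were taken from RefSeq (GRCm38.p6), each 300 bases long with 250 before and 50 after the annotated start. The table held a promoter for 7 of the 9 genes. The core of the E-box, CACGTG, was searched exactly. It reads the same on both strands. Its extended form TCACGTGA, which contains the core and is likewise the same on both strands, was searched with at most 1 mismatch. These 4 promoters are printed because Mcoln1 and Lamp1 hold the core motif, Ctns a near match, and Lamp2 neither. Capitals mark the matches.
Mcoln1: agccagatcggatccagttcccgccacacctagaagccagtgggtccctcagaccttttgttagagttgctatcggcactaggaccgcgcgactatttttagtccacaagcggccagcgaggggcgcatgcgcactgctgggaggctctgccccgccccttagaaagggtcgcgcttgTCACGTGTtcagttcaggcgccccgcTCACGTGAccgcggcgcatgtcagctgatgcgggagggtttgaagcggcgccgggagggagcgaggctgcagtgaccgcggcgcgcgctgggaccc
Lamp1: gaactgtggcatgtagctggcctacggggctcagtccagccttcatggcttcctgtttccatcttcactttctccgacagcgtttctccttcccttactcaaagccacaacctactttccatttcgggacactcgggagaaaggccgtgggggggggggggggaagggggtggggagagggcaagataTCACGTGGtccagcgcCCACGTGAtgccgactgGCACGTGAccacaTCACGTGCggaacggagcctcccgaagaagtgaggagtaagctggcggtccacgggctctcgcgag
Ctns: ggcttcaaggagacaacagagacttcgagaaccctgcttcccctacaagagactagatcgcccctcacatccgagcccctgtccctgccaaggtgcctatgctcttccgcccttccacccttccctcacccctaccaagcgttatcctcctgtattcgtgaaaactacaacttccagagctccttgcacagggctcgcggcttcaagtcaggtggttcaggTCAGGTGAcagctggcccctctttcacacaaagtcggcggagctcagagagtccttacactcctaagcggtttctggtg
Lamp2: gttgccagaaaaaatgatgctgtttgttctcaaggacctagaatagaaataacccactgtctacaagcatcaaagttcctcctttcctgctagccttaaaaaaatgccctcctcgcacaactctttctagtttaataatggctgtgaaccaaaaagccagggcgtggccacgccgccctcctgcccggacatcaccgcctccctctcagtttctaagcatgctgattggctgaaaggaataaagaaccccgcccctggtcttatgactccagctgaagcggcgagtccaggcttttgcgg

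The Mcoln1 window lies at chr8:3500269-3500568 on the plus strand and holds 2 copies of the core, which begin 71 and 45 bases upstream of the start. The copy nearer the start is an exact TCACGTGA. The Lamp1 window, chr8:13158911-13159210 on the plus strand, holds 4 copies beginning 61, 45, 28 and 15 bases upstream, none of them within an exact TCACGTGA. Of 32851 promoters of this length, 2349 (7.15%) held the core at least once, 195 (0.594%) at least 2 times and 8 (0.0244%) at least 4 times, and 320 (0.974%) held an exact TCACGTGA. The Ctns window at chr11:73198970-73199269, minus strand, has no core copy but 1 octamer, TCAGGTGA, that differs from the extended motif at 1 position and begins 29 bases upstream. At least 1 octamer within 1 mismatch was found in 8.63% of promoters. These shares count promoters, and a gene can have several. Per gene, with the best promoter of each of 9887 tested genes, they were higher. The core occurred at least once in 10.8%, at least 2 times in 1.02% and at least 4 times in 0.0405%. An exact TCACGTGA occurred in 1.76% and an octamer within 1 mismatch in 11.6%. RefSeq gives Ctns another start nearby, whose window holds the same octamer. The window of Lamp2 (chrX:38456411-38456710, minus strand) and those of Scarb2, Cd68 and Cd63 held no match to either motif. The Cd63 window (chr10:128909095-128909394, plus strand) lies inside the annotated gene (chr10:128896231-128912822). The bases at the upstream end of that gene were therefore not searched. These matches describe letters in a window and are not measured binding.

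**Figure D1:**
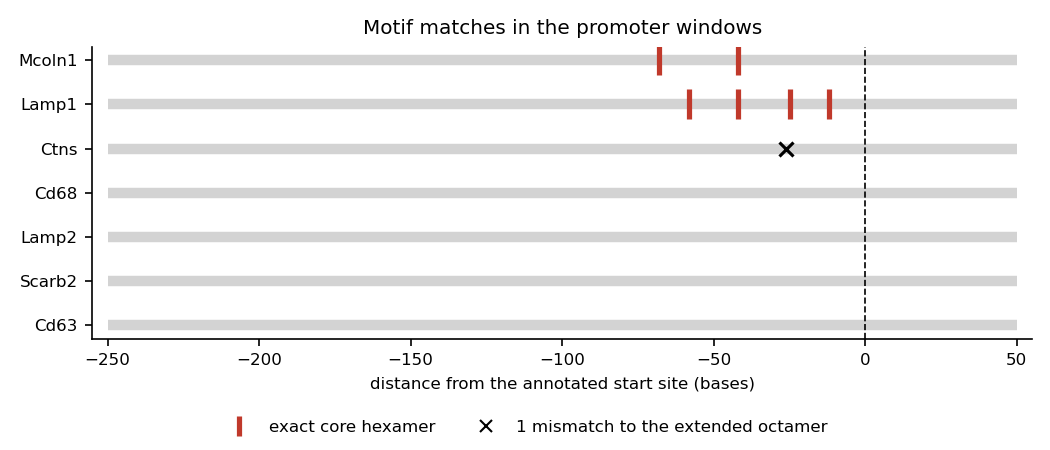
Positions of motif matches in the promoter windows of 7 genes, in bases from the annotated start site (dashed line). Red bars mark exact copies of the core hexamer, 4 in Lamp1 and 2 in Mcoln1, and the cross marks the Ctns octamer with 1 mismatch. Grey bars are the windows searched, and that of Cd63 lies inside the annotated gene.

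Values are log2 expression per probe set, so a difference of 1 is a doubling of signal. Arrays of the injected livers correlated at 0.992 to 0.997 across probe sets, those of the not-injected livers at 0.997 to 0.998, and arrays of different groups at 0.975 to 0.988. Control transcripts added during labelling and hybridisation were lower in injected livers, with median differences of -0.44 for 24 poly-A spike-in probe sets and -0.32 for 18 hybridisation spike-in probe sets. The part of labelling or hybridisation in the differences below was not tested. The median difference of all genes was -0.05. The probe set of Tfeb read 7.48, 7.78 and 7.46 in TFEB-injected livers, against 7.50, 7.59 and 7.47 in not-injected livers. These values overlap, and whether those probes can detect the vector's transcript is not given. The 10 hepatocyte markers measured averaged 13.90 to 13.93 per array with injection and 14.09 to 14.14 without it. Both ranges were far above the upper quartile of every array (8.94 to 9.05). This mean includes Tat, whose difference of -1.45 lowers it in injected livers.

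Mcoln1, Lamp1, Ctns, Npc1, Pip4p2 and Cd68 were higher in TFEB-injected livers, by 1.48- to 3.35-fold, while Lamp2 and Scarb2 did not pass the test. Differences were tested with limma over all 12393 genes and called at a Benjamini-Hochberg adjusted p under 0.05. Of the 8 genes measured, 6 were called higher and 0 lower. Among all genes 14.2% were called higher and 13.9% lower. In the same 6 genes every injected liver read above every not-injected liver, which held for 20.1% of all genes. The median difference of the 8 genes was 0.67. Injected replicate 2 had the lowest value of the 3 injected livers in 5 of the 6 called genes, as it did in 65.6% of the 1765 genes called higher. Without that liver the same 6 genes passed.

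**Figure D2:**
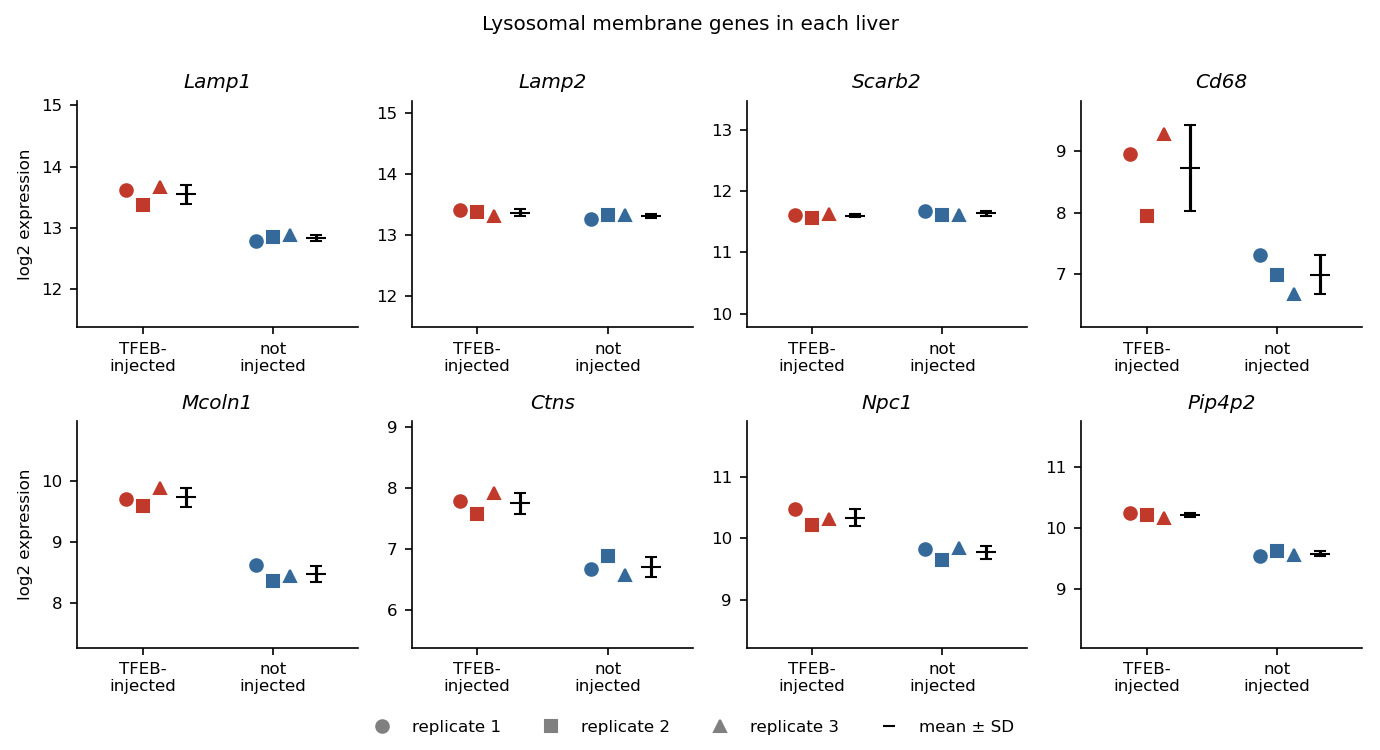
Log2 expression of 8 lysosomal membrane genes in 3 TFEB-injected livers (red) and 3 not-injected livers (blue), with 1 symbol shape per replicate number and black bars for the mean ± SD. Every panel spans the same number of log2 units but starts at its own level. The groups are apart in 6 panels and overlap for Lamp2 and Scarb2.

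Among the structural proteins, Lamp1 rose and its relative Lamp2 did not pass. Lamp1 (chr8:13159161-13175338) encodes an abundant, heavily glycosylated membrane protein, with 1 probe set. It read 13.61, 13.37 and 13.66 in TFEB-injected livers, against 12.79, 12.85 and 12.88 in not-injected livers. The lowest injected liver lay 0.49 above the highest not-injected one. Lamp1 was 1.63-fold higher (0.71 ± 0.09 on the log2 scale, SE, 3 livers per group, limma adjusted p = 0.00175).

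Lamp2 (chrX:38399647-38456460) encodes the partner glycoprotein, which is also the receptor of chaperone-mediated autophagy. Its brightest probe set read 13.42, 13.38 and 13.32 in TFEB-injected livers, against 13.27, 13.33 and 13.33 in not-injected livers. The groups overlapped, and the difference was 0.06 ± 0.06 (SE, adjusted p = 0.510) with a 95% interval of -0.09 to 0.21, or 0.942- to 1.15-fold. All 4 probe sets of Lamp2 gave small differences, from -0.01 to 0.16, and none passed when every probe set was tested (adjusted p = 0.0822 to 0.931). In 2 of them each injected liver nevertheless lay above each not-injected one. The one with the largest difference read 13.23, 13.22 and 13.18 with injection and 13.02, 13.05 and 13.07 without it. The probe sets of Lamp1 and Lamp2 used here read above 98.95% and 99.2% of probe sets on these arrays, and whether signals that high are compressed was not tested.

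Scarb2 (chr5:92441311-92505657) encodes LIMP-2, which carries beta-glucocerebrosidase to the lysosome. Its brighter probe set read 11.61, 11.57 and 11.62 in TFEB-injected livers, against 11.68, 11.61 and 11.62 in not-injected livers. The difference was -0.04 ± 0.06 (SE, adjusted p = 0.690), with a 95% interval of 0.885- to 1.08-fold. The other probe set read 10.70, 10.56 and 10.81 with injection and 10.64, 10.48 and 10.36 without it. Both sets overlapped between groups, and the second differed by 0.20 ± 0.10 (SE, adjusted p = 0.176 over all probe sets).

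The changes of Lamp1 and Lamp2 were also compared directly. In each liver the log2 value of Lamp2 was taken from that of Lamp1, and the mean of this quantity was 0.65 higher in TFEB-injected than in not-injected livers, with no overlap between groups. Against Scarb2 the change of Lamp1 was larger by 0.74, and the change of Mcoln1 was larger than that of Lamp2 by 1.19. Each of these 3 comparisons gave a two-sided exact permutation p of 0.1 over 20 assignments, adjusted p = 0.1, the smallest that 3 livers per group allow. The 3 pairs were outside the planned tests, and each sets a called gene against one that did not pass. Their separation therefore follows partly from that choice and adds no separate evidence.

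Cd68 (chr11:69664213-69666170) encodes macrosialin, a LAMP-family glycoprotein of macrophage endosomes and lysosomes, and had the largest and most variable difference of the 8 genes. Its 1 probe set read 8.96, 7.94 and 9.28 in TFEB-injected livers, against 7.30, 6.98 and 6.67 in not-injected livers. The groups did not overlap, but injected replicate 2 was more than 1 unit below the other injected livers. Cd68 was 3.35-fold higher (1.74 ± 0.33, SE, adjusted p = 0.00832), with a 95% interval of 1.96- to 5.71-fold, and the difference was 2.14 without injected replicate 2.

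Because Cd68 is used as a macrophage marker, other markers of Kupffer cells and macrophages are given beside it. Of 20 such genes measured, 5 were called higher, 2 lower and 13 did not pass, with a median difference of 0.26. Among all genes 14.2% were called higher and 13.9% lower, with a median of -0.05. The mean log2 level of the 20 markers was 8.75 to 8.98 in TFEB-injected livers and 8.67 to 8.93 in not-injected livers. These ranges overlapped. This mean includes Cd163, whose difference of -3.62 lowers it in injected livers. The overlap therefore does not show that the other markers were level. Injected replicate 2, lowest for Cd68, was the highest array for this mean. Adgre1, which encodes a surface receptor used to define mouse macrophages, read 8.77, 8.997 and 8.46 in injected livers, against 8.82, 8.63 and 8.51 in not-injected livers, and differed by 0.09 (adjusted p = 0.666).
The Kupffer cell lectin gene Clec4f differed by -0.11 (adjusted p = 0.539), the complement receptor gene Vsig4 by 0.42 (adjusted p = 0.126) and the growth factor receptor gene Csf1r by 0.17 (adjusted p = 0.250). None of these 4 defining markers passed in this fit. Vsig4 did pass when the replicate number was added as a block (limma adjusted p = 0.0268). Among the other markers, Lyz2 differed by 0.93 (adjusted p = 0.0025) and Mpeg1 by 0.72 (adjusted p = 0.00145). Cd5l differed by 0.49 (adjusted p = 0.0129), Tyrobp by 0.45 (adjusted p = 0.0473) and Marco by -0.80 (adjusted p = 0.0238). The endotoxin co-receptor gene Cd14 rose 3.03-fold (8.03, 7.56 and 8.33 with injection, against 6.21, 6.58 and 6.34 without it). The haemoglobin scavenger receptor gene Cd163 fell, reading 4.99, 5.33 and 4.61 in injected livers, against 8.94, 8.71 and 8.15 in not-injected livers. Each injected value was under the lower quartile of its array (5.46 to 5.56 over the 6 arrays), so the size of that fall is not exact. The part of macrophage number in the Cd68 difference was not tested.

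**Figure D3:**
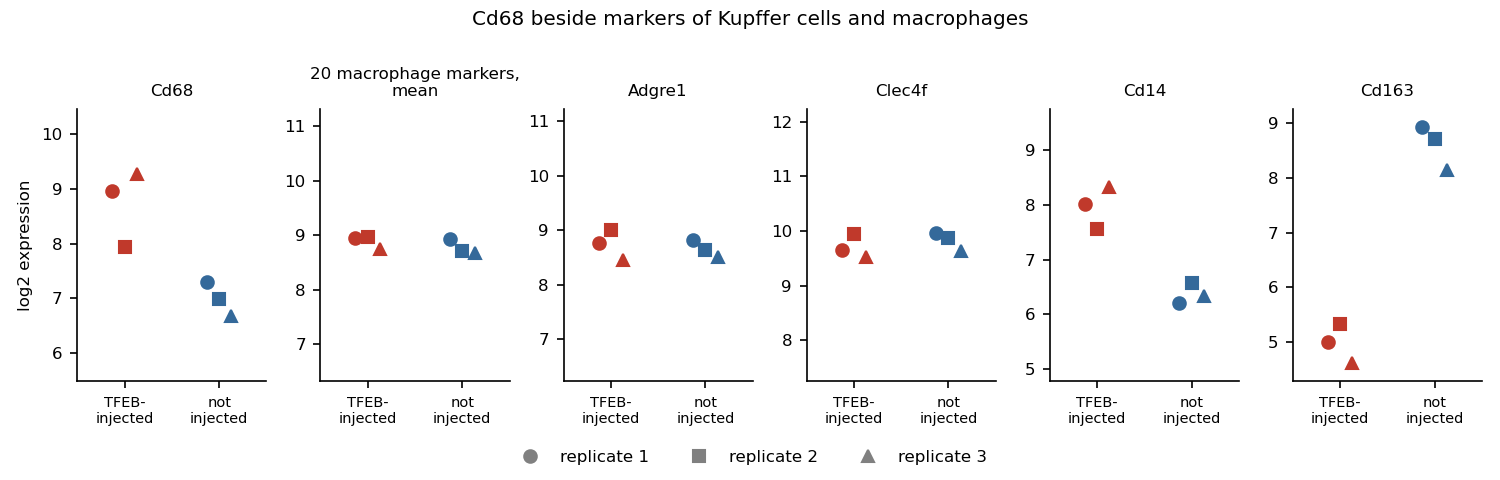
Log2 expression of Cd68, the mean of 20 macrophage markers and 4 single markers in 3 TFEB-injected livers (red) and 3 not-injected livers (blue), with 1 symbol shape per replicate number. All panels span the same number of log2 units. Cd68 and Cd14 are higher in every injected liver, Cd163 is lower in every one, and the marker mean, Adgre1 and Clec4f overlap between groups. The marker mean includes Cd163, which lowers it in injected livers.

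The calcium channel gene Mcoln1 (chr8:3500519-3515232) had the smallest p of the 8 genes. Its brighter probe set read 9.71, 9.59 and 9.89 in TFEB-injected livers, against 8.62, 8.36 and 8.45 in not-injected livers. The groups were 0.97 apart at their nearest values, a gap several times the SD within either group (0.15 with injection, 0.13 without). Mcoln1 was 2.38-fold higher, with a 95% interval of 2.02- to 2.81-fold (1.25 ± 0.10, SE, adjusted p = 0.0003045). The second probe set read 8.96, 8.87 and 9.30 with injection and 7.96, 8.05 and 8.01 without it. It also rose, by 1.04 ± 0.11 (SE, adjusted p = 0.000919 over all probe sets), so both readings of the channel transcript moved the same way.

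The transporter genes Ctns and Npc1 were both higher. Ctns (chr11:73183133-73199115), whose loss in humans causes cystinosis, read 7.78, 7.57 and 7.91 in TFEB-injected livers, against 6.67, 6.88 and 6.57 in not-injected livers. It was 2.06-fold higher (1.04 ± 0.11, SE, adjusted p = 0.000988). Npc1 (chr18:12189694-12236506), mutated in human Niemann-Pick disease type C, read 10.48, 10.22 and 10.31 in TFEB-injected livers, against 9.82, 9.65 and 9.84 in not-injected livers. The groups were 0.37 apart, the narrowest gap among the 6 called genes, and Npc1 was 1.48-fold higher (0.57 ± 0.09, SE, adjusted p = 0.00468).

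Pip4p2 (chr4:14864219-14915260) encodes a membrane phosphatase that removes a phosphate from phosphatidylinositol 4,5-bisphosphate in late endosomes and lysosomes. It read 10.24, 10.21 and 10.17 in TFEB-injected livers, against 9.54, 9.62 and 9.56 in not-injected livers. The livers of each group were within 0.1 of each other, with SDs of 0.04 in both groups. Pip4p2 was 1.55-fold higher (0.63 ± 0.06, SE, adjusted p = 0.000624).

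When every probe set with 1 symbol was tested, 7 of the 13 belonging to these genes were called higher and 0 lower, where 12.9% of all 20380 probe sets were called higher. In 9 of the 13 every injected liver lay above every not-injected liver, which held for 18.7% of all probe sets. The 6 that did not pass were the 4 of Lamp2 and the 2 of Scarb2. For no gene did one probe set pass and another fail.

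**Figure D4:**
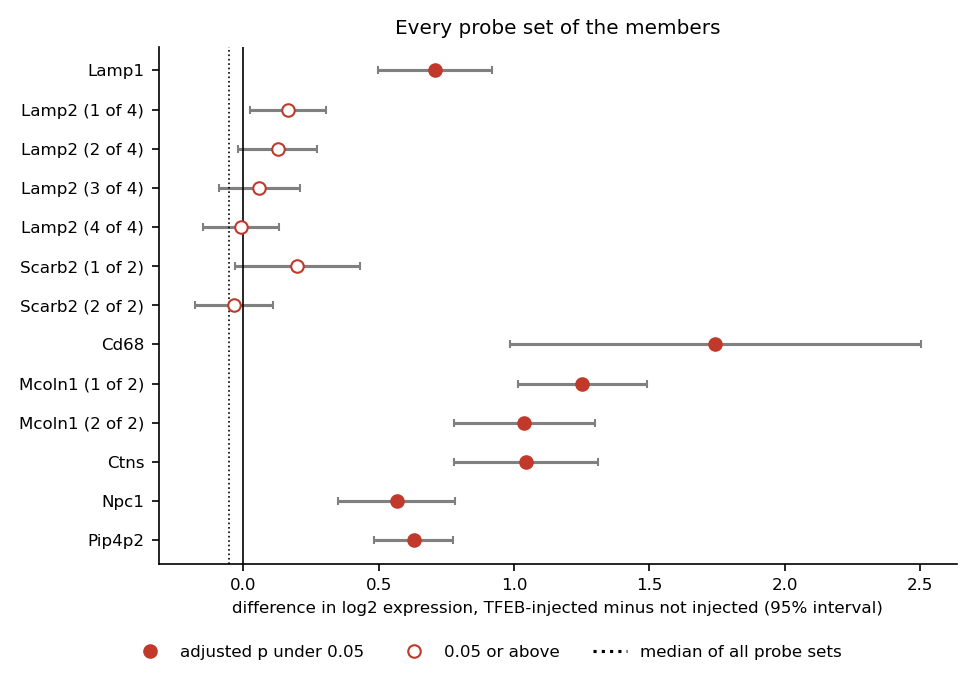
Difference in log2 expression (TFEB-injected minus not-injected liver) of the 13 probe sets, 1 row each, with 95% intervals from limma. Filled points passed at an adjusted p under 0.05 over all probe sets and open points did not. The dotted line is the median of all probe sets (-0.05), and the open points are those of Lamp2 and Scarb2.

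Other genes of the lysosomal membrane were mixed. Every gene of the related lists said here to have risen or fallen passed limma over all genes with an adjusted p of 0.0480 or less. Among all genes 14.2% were called higher and 13.9% lower, against which the counts below are to be read. Cd164, Mcoln2, Lipa, Mfsd8, Mtm1, Hgsnat, Nr1h3, Tspan31, Syt7 and Igf2r each lost their call under 5 or more of the alternative settings or omitted arrays. Of 11 further glycoproteins and small proteins of that membrane, 6 rose and 1 fell while 4 did not pass, and the median difference was 0.31. Tmem106b, a membrane protein of late endosomes and lysosomes, rose by 1.32 ± 0.08 (SE) and Laptm4b by 1.11 ± 0.13. Glmp, a glycosylated partner of the carrier MFSD1, rose by 0.99 ± 0.12, and the sialomucin gene Cd164 fell by 0.19 ± 0.06 (adjusted p = 0.0415). The other probe set of Cd164 read -0.07 and did not pass (adjusted p = 0.582 over all probe sets). For Cd63, which was not measured, 16 other tetraspanin genes can be described. Of these 5 rose, 3 fell and 8 did not pass, and the median was 0.13. Cd9 rose 5.72-fold (2.51 ± 0.21), Cd81 2.02-fold (1.01 ± 0.06) and Tspan3 1.80-fold (0.85 ± 0.14), whereas Tspan33 fell by 0.88 ± 0.17, Tspan4 by 0.44 ± 0.09 and Tspan31 by 0.24 ± 0.07. The class B scavenger receptor relatives of Scarb2 were Cd36, a fatty acid transporter gene that rose 13.4-fold (3.74 ± 0.09), and the HDL receptor gene Scarb1, which differed by 0.10 (adjusted p = 0.360).

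Related transporters moved in both directions. Of 18 lysosomal transporter genes 6 rose, 2 fell and 10 did not pass (median 0.15). Cln3, mutated in human juvenile neuronal ceroid lipofuscinosis, read 8.63, 7.98 and 8.86 in TFEB-injected livers, against 6.82, 6.92 and 6.56 in not-injected livers, and rose 3.30-fold (1.72 ± 0.22, SE). The histidine and peptide carrier gene Slc15a4 rose by 0.89 ± 0.12 (SE) and Mfsd1 by 0.46 ± 0.06. Mfsd8, the gene of another lysosomal membrane protein mutated in that group of human diseases, fell by 0.28 ± 0.08 (adjusted p = 0.0463), and the heparan sulphate acetyltransferase gene Hgsnat by 0.22 ± 0.06 (adjusted p = 0.0358). Around Npc1, 2 of 8 genes of lysosomal cholesterol handling rose, 1 fell and 5 did not pass (median -0.01). Those that rose were Npc2, whose product hands cholesterol to NPC1 (0.45 ± 0.07), and the acid lipase gene Lipa (0.25 ± 0.07). Nr1h3, encoding the oxysterol receptor LXR-alpha, fell by 0.24 ± 0.07 (adjusted p = 0.0480). The other probe sets of Lipa read 0.17 (adjusted p = 0.395 over all probe sets) and 0.24 (adjusted p = 0.06495), and neither passed.

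Of 10 other ion channel genes of the lysosome 3 rose, 2 fell and 5 did not pass, and their median difference was 0.06. P2rx4, an ATP-gated channel, read 11.45, 11.26 and 11.57 in TFEB-injected livers, against 10.11, 10.03 and 10.16 in not-injected livers, and rose 2.51-fold (1.33 ± 0.09, SE). Tpcn1, a cation channel of endosomes and lysosomes, rose by 0.39 ± 0.07 (SE), but another of its 3 probe sets was lower (-0.27, adjusted p = 0.0420 over all probe sets), so its direction is uncertain. The mucolipin relatives of Mcoln1 went opposite ways: Mcoln3 rose by 0.55 ± 0.14 and Mcoln2 fell by 0.25 ± 0.07 (adjusted p = 0.0438). Both read near the lower quartile of the arrays. Their means were 5.75 with injection and 5.20 without for Mcoln3, and 5.61 and 5.86 for Mcoln2. Another probe set of Mcoln3 read 1.63 and did not pass (adjusted p = 0.124 over all probe sets). The osmosensitive channel gene Tmem63a fell by 0.71 ± 0.09.

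Beside Pip4p2, 3 of 11 genes of endolysosomal phosphoinositide enzymes rose, 2 fell and 6 did not pass (median 0.04). The kinase subunit genes Pip4k2c and Pip4k2a, whose products make phosphatidylinositol 4,5-bisphosphate from the 5-phosphate, rose by 1.20 ± 0.10 (SE) and 0.92 ± 0.21. A second probe set of Pip4k2c read 0.15 (adjusted p = 0.204 over all probe sets) and one of Pip4k2a 0.23 (adjusted p = 0.328), while another set of Pip4k2a read 0.90 (adjusted p = 0.0271). Among 3-phosphatase genes of the myotubularin family Mtmr2 rose by 0.73 ± 0.15, while Mtmr4 and Mtm1 fell by 0.44 ± 0.09 and 0.22 ± 0.07. Another probe set of Mtmr4 read -0.18 (adjusted p = 0.331) and one of Mtm1 -0.08 (adjusted p = 0.606), and neither passed, while another set of Mtm1 read -0.49 (adjusted p = 0.00668). Pikfyve, Fig4 and Vac14, whose products form the complex that makes the lipid known to open the Mcoln1 channel, did not pass, and the difference of Pikfyve was 0.11 ± 0.10 (adjusted p = 0.435).

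Genes that place and fuse lysosomes or sort proteins to them are read against the same 14.2% and 13.9% of all genes. Of 15 genes of positioning, tethering and fusion 4 rose, 3 fell and 8 did not pass (median 0.02). The HOPS tether subunit gene Vps41 rose by 0.56 ± 0.07 (SE). Its other probe sets read 0.39 (adjusted p = 0.0110 over all probe sets) and 0.27, which did not pass (adjusted p = 0.325). The syntaxin gene Stx7 rose by 0.62 ± 0.10 and the late endosomal GTPase gene Rab7 by 0.28 ± 0.07. Vamp7 fell by 0.37 ± 0.08, Borcs5 by 0.33 ± 0.08 and Syt7 by 0.38 ± 0.10. Of 15 adaptors and receptors that sort lysosomal proteins 3 rose, 1 fell and 11 did not pass (median 0.12). The adaptor gene Gga2 rose by 1.90 ± 0.28, Gnptab, which encodes the enzyme that starts the mannose 6-phosphate tag, by 1.30 ± 0.13, and the receptor of that tag, Igf2r, by 0.85 ± 0.21, while the sortilin gene Sort1 fell by 0.47 ± 0.09. Other probe sets of Gnptab read 0.69 (adjusted p = 0.00568 over all probe sets) and 0.14, which did not pass (adjusted p = 0.251). Those of Sort1 read -0.16 (adjusted p = 0.371) and -0.27 (adjusted p = 0.0574), and neither passed.

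**Figure D5:**
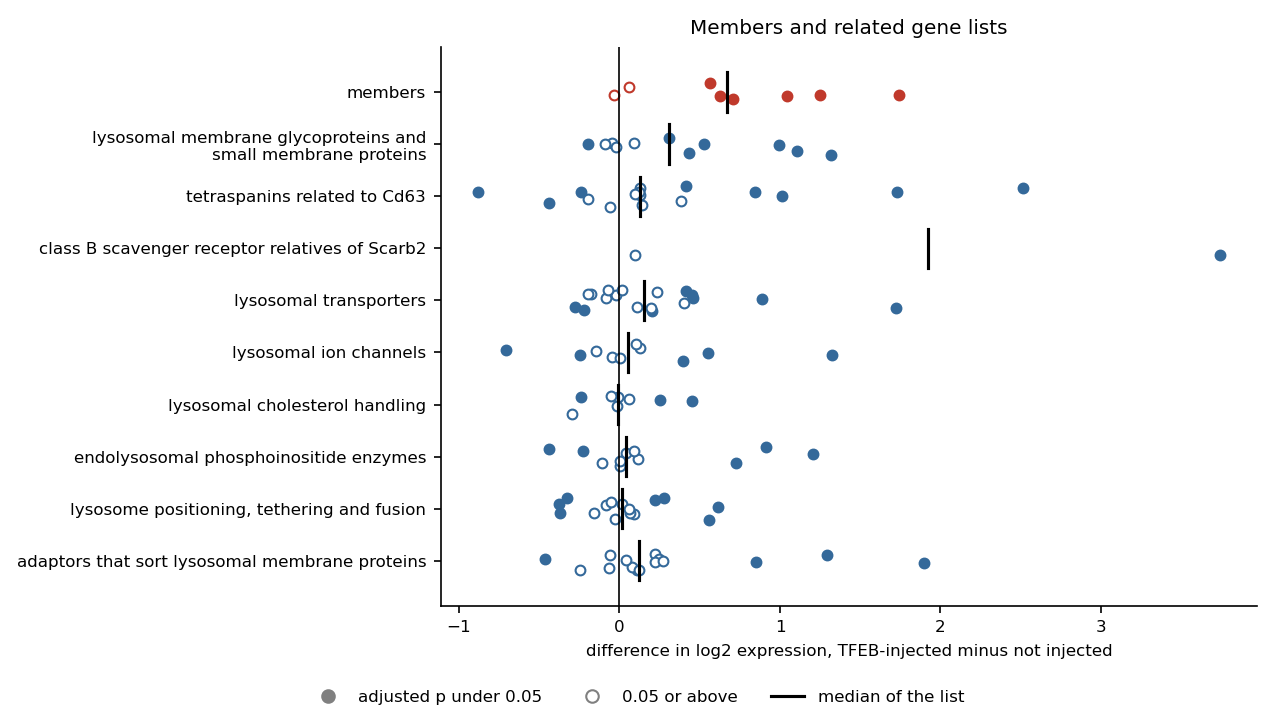
Difference in log2 expression (TFEB-injected minus not-injected liver) of the 8 lysosomal membrane genes (red) and of 9 related gene lists (blue), 1 point per gene. Filled points passed at an adjusted p under 0.05 over all genes, and black bars are list medians, 0.67 for the 8 genes and -0.01 to 0.31 for 8 of the lists. The list of scavenger receptors has 2 genes.

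In promoter windows of the related lists the core CACGTG was found in 4 of 30 genes called higher, 4 of 10 called lower and 6 of 47 not called. Mfsd1 held 5 copies, Cln3 2 and Igf2r 2, all called higher, whereas Clcn7 and Clcn6, chloride transporter genes of the lysosome and late endosome, held 2 each and were not called. Over the 9887 tested genes with a promoter the core was present in 15.1% of those called higher, 10.7% of those called lower and 9.97% of those not called. These shares are descriptions and were not tested.

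The genes whose values over the 6 livers most resembled those of Mcoln1 were Arsa (Pearson r = 0.9996), Sumf1 (r = 0.998) and Acsf3 (r = 0.998). Arsa encodes arylsulfatase A and Sumf1 the enzyme that activates sulfatases. Arsa was 1.52 higher on the log2 scale in TFEB-injected livers, Sumf1 0.79 and Acsf3 0.35. Such values follow largely from the group difference, since 1359 of 12385 genes correlated with Mcoln1 above 0.9.

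Markers of other cell types are given for comparison, beside 14.2% of all genes called higher and 13.9% lower. Of 11 sinusoidal endothelial markers 6 rose and 0 fell. Lyve1 (2.10 ± 0.15, SE) and Flt4 (0.66 ± 0.07) had the smallest p, although a second probe set of Flt4 read 0.21 (adjusted p = 0.281 over all probe sets). Their mean level was 8.82 to 9.02 in TFEB-injected livers and 8.31 to 8.42 in not-injected livers. Of 8 lymphocyte markers 2 rose and 6 did not pass. The general leukocyte gene Ptprc rose by 0.71 ± 0.14 and Jchain by 0.59 ± 0.11. Jchain read near the lower quartile of the arrays, at means of 5.88 with injection and 5.30 without. Mean levels of the lymphocyte markers were 6.28 to 6.48 with injection and 6.10 to 6.24 without it. Neither pair of ranges overlapped. Hepatocyte markers had 1 gene higher, Apob (0.29 ± 0.07), and 1 lower, Tat (-1.45 ± 0.10), of 10. Of 9 stellate cell markers 2 fell, Ecm1 by 0.50 ± 0.11 and Reln by 0.38 ± 0.11, of 5 biliary markers none was called, and of 3 erythroid markers Alas2 fell by 1.60 ± 0.16. The calls of Apob and Reln were each lost under 5 of the alternatives. Mean levels of the stellate cell and biliary markers overlapped between the groups. Those of the erythroid markers were lower without overlap, at 6.01 to 6.38 with injection and 6.74 to 6.83 without it. That mean of 3 genes includes Alas2, which lowers it in injected livers. The other erythroid markers, Hba-a1 (-0.02, limma adjusted p = 0.880) and Slc4a1 (-0.26, adjusted p = 0.0576), did not pass. Hepatocyte marker means were also lower without overlap, at 13.90 to 13.93 with injection and 14.09 to 14.14 without it. These means include Tat, whose difference of -1.45 lowers them in injected livers. The median difference of the 10 hepatocyte markers was -0.12, and 8 did not pass. The lower means therefore do not show that the other hepatocyte markers fell. The part of cell composition in the differences of the lysosomal membrane genes was not tested.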

How the data were processed

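The deposited table holds 1 value per probe set and array on the log2 scale. RMA and the R package affy are named in the submitters' processing notes, without versions, and filters are not given in the sources used here. RMA usually equalises arrays, so a shift of all transcripts would not be seen, and no detection calls came with the values. The number of arrays limits the precision. Of 22690 probe sets, 64 were controls, 20380 had 1 symbol, 691 several and 1555 none, and only those with 1 symbol were named. Where a gene had several probe sets, the one brightest on average across all 6 arrays stood for it.

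Differences (TFEB-injected minus not-injected, 3 arrays each) were tested with limma 3.58.1 in R 4.3.3 (lmFit, eBayes, two-sided, Benjamini-Hochberg over 12393 genes) with no covariate and no filter on low values. A second fit tested every probe set. The fit was tested on simulated data for this comparison (12393 genes, 200 of them changed), where it called 59% of planted log2 changes of 0.5 and 92% of those of 1. In the data 3486 genes were called, and the Benjamini-Hochberg cutoff depends on how many genes change. The simulated shares therefore need not hold for the data. Pairs of changes, outside the planned tests, were compared by exact permutation. Tables and plots were made in Python 3.11.15 (pandas 2.3.3, numpy 2.4.6, scipy 1.17.1, matplotlib 3.10.9). The members and lists were chosen with earlier results of these data known. The text names all members, up to 3 called genes with the smallest p in each direction per related list, up to 2 per marker list, 4 defining macrophage markers and 3 genes most like Mcoln1. Further genes were named after their values were seen: Scarb1, Pikfyve, Fig4, Vac14, Clcn7, Clcn6, Lyz2, Mpeg1, Cd5l, Tyrobp, Marco, Hba-a1 and Slc4a1. The fit was repeated with the replicate number as a block, an intensity trend, only genes at or above the median level, averaged probe sets, a second quantile normalisation, centring, array weights and each array left out.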

Additional observations from a re-analysis of the deposited data

How the results depend on the processing

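The 6 calls and their direction held under each alternative run, except that Ctns lies below the median level and was not tested among genes at or above it, where 5 of 7 genes were called. Over the alternatives the difference was 1.14 to 1.32 for Mcoln1, 0.64 to 0.80 for Lamp1, 0.97 to 1.14 for Ctns, 0.49 to 0.63 for Npc1, 0.56 to 0.65 for Pip4p2 and 1.47 to 2.14 for Cd68, with adjusted p-values of 0.0361 or less. The sign of Scarb2 turned with the mean of its probe sets (0.082, adjusted p = 0.421) and that of Lamp2 after centring on the median (-0.0080, adjusted p = 0.933), and neither passed in any alternative. Leaving out 1 array changed the count of all called genes from 3486 to between 1973, without not-injected replicate 2, and 4378, without injected replicate 2. It was 2032 without not-injected replicate 3 and 2103 without injected replicate 1. In the fit of every probe set 7 of 13 were called under each omission, an alternative chosen after seeing the data.

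The groups share replicate numbers 1 to 3, but deviations of same-numbered arrays correlated at only 0.14, 0.06 and 0.01, and the labels give no pairing. With the replicate number as a block 3348 genes, 6 of the 8 lysosomal membrane genes and 7 of the 13 probe sets were called, the same as without it for the members and their probe sets. Of the 50 called genes named by smallest p from the related and marker lists, 7 lost their call with the block (Cd164, Hgsnat, Mfsd8, Mcoln2, Mtm1, Apob and Reln, adjusted p = 0.0534 to 0.0813). Genes named after their values were seen are not among the 50. Vsig4, which did not pass without the block, gained a call with it (0.42, adjusted p = 0.0268).

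Over all settings, chosen for these list genes after seeing the data, 31 of the 50 kept their call wherever they were tested and 19 lost it at least once, 7 to 14 for each array left out. The mean of all probe sets ended the calls of Cd164, Tpcn1, Mcoln3, Lipa and Mtmr4. Among markers that did not pass, Csf1r read -0.013 with the mean of all probe sets, and Adgre1 read -0.0046 after a second quantile normalisation and -0.036 to 0.231 with 1 array left out, the lowest without injected replicate 2. In the other direction, 1 of the markers that did not pass gained a call without not-injected replicate 1, as Vsig4 did with the block.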
